A study of Homo sapiens with 30 samples.

Results

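The antioxidant response genes described here are 10 genes of NADPH-dependent detoxification and redox repair: AKR1C1, AKR1C2, AKR1C3, AKR1B10, NQO1, GCLM, GCLC, TXNRD1, SRXN1 and HMOX1. They were 10 of the 26255 genes in the RNA-seq table, matched by gene symbol, and were chosen by their measured transcript levels across the 4 RWPE1 lines below. The levels and ratios are therefore given as a description with no test. RWPE1 is an immortalised line of normal prostate epithelial cells, grown in keratinocyte medium with EGF and bovine pituitary extract. The RWPE1-vector line is the vector control, with pBabe-Puro as the empty vector for AKT, and the RWPE1-ERG line stably expressed FLAG-tagged ERG isoform 1 from the retroviral vector pQCXIH. The RWPE1-mAKT line expressed myristoylated, constitutively active AKT (mAKT) from pBabe-Puro, and the RWPE1-ERG/mAKT line expressed both proteins. Peak lists also came from an RWPE1 line expressing ERG S96E, a phosphomimetic form of ERG used here for H3K27me3 alone, and from VCaP, a prostate cancer line with a TMPRSS2-ERG fusion, treated with vehicle and used for ERG ChIP-seq. The transduced cells were kept under puromycin and hygromycin, so the lines are drug-selected and make the transgenes from viral vectors rather than from the genes' own promoters. Each line had 3 RNA-seq libraries, and the deposited table holds 1 FPKM value per gene and line that the authors pooled over those libraries. FPKM counts fragments per kilobase of transcript, scaled to a fixed number of mapped fragments. The pooled values carry no spread between libraries, so no difference between lines below has a replicate check.

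The cells respond to oxidants and electrophiles through NFE2L2 (NRF2), a transcription factor that KEAP1 holds down by marking it for degradation. When KEAP1 is modified, NFE2L2 pairs with small MAF proteins on antioxidant response elements (AREs), and BACH1 competes for the same elements. The targets make glutathione, regenerate thioredoxin and reduce quinones and reactive carbonyls. In the prostate the AKR1C enzymes are also known for reducing steroids: AKR1C3 makes testosterone from androstenedione, AKR1C2 inactivates dihydrotestosterone and AKR1C1 inactivates progesterone.

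The lines carried the RNA their labels name. ERG was at 0.264 FPKM in RWPE1-vector, 0.435 in RWPE1-mAKT, 358 in RWPE1-ERG and 328 in RWPE1-ERG/mAKT. AKT1 was at 58.7 FPKM in RWPE1-vector, 64.2 in RWPE1-ERG, 156 in RWPE1-mAKT and 281 in RWPE1-ERG/mAKT. All 4 basal epithelial markers were above 1 FPKM. The luminal marker KLK3 was listed at 0 in every line. None of 4 endothelial markers, 1 of 4 fibroblast markers (COL1A1) and 1 of 3 leukocyte markers (CD68) reached 1 FPKM. The summed basal markers ranged from 1962 FPKM in RWPE1-ERG to 6324 FPKM at the highest. KRT14 was at 2936 FPKM in RWPE1-vector, 699.5 in RWPE1-ERG, 2527 in RWPE1-mAKT and 1185 in RWPE1-ERG/mAKT. KRT5 was at 3126, 1170, 3642 and 3519 FPKM in the same order. The luminal keratin KRT8 was at 622, 1769, 671 and 921 FPKM. The lowest value of both basal keratins fell in RWPE1-ERG, the line in which the 4 AKR genes were also lowest, and the part of this shift in the values below was not tested. In such bulk RNA, fewer cells that express a gene and less RNA per cell cannot be told apart.

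The steroid-reducing AKR1C genes had their lowest level in RWPE1-ERG and their highest in RWPE1-ERG/mAKT. AKR1C1 was at 15.4 FPKM in RWPE1-vector, 3.54 in RWPE1-ERG, 13.9 in RWPE1-mAKT and 18.4 in RWPE1-ERG/mAKT. AKR1C2 was at 3.13, 0.772, 3.33 and 7.68 FPKM in the same order. AKR1C3 was at 4.14, 2.21, 4.40 and 5.55 FPKM. For each of the 3 genes the RWPE1-vector and RWPE1-mAKT values lay close together, and RWPE1-ERG stood below both. AKR1C1 was the most abundant of the 3 in every line, with 67.9% of their summed FPKM in RWPE1-vector, 54.3% in RWPE1-ERG, 64.3% in RWPE1-mAKT and 58.1% in RWPE1-ERG/mAKT. AKR1C2 contributed 11.8% of the sum in RWPE1-ERG and 24.3% in RWPE1-ERG/mAKT. The related liver enzyme AKR1C4 was listed at 0 in all 4 lines.

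The split of reads between these genes is uncertain, because the 3 genes are near-identical copies in 1 cluster on chromosome 10. On the hg19 build the table places AKR1C1 at chr10:5005454-5020158, AKR1C2 at chr10:5029968-5060225 and AKR1C3 at chr10:5090958-5149878. Their coding sequences in the GENCODE annotation are each 969 bases long. AKR1C1 and AKR1C2 were 98.0% identical over that length, AKR1C1 and AKR1C3 were 91.7% identical, and AKR1C2 and AKR1C3 were 91.2% identical. Of all 50-base stretches of the coding sequence, 53.4% in AKR1C1, 57.1% in AKR1C2 and 20.1% in AKR1C3 occurred unchanged in another of the 3 genes. The sum of the 3 genes depends less on that split, but is not free of it, because FPKM is scaled by transcript length. It was 22.7 FPKM in RWPE1-vector, 6.52 in RWPE1-ERG, 21.6 in RWPE1-mAKT and 31.6 in RWPE1-ERG/mAKT, which put RWPE1-ERG 3.48-fold below RWPE1-vector and RWPE1-ERG/mAKT 4.85-fold above RWPE1-ERG. The likeness extends upstream of the genes. The 250 bases before the start of AKR1C1 and AKR1C2, shown here because the 2 genes moved together, share an identical run of 245 bases at an offset of 4 bases. They come from RefSeq on GRCh38.p14, at chr10:4963165-4963414 on the plus strand and chr10:5003858-5004107 on the minus strand, and capitals mark GGAA, the core letters that ETS factors such as ERG recognise.
AKR1C1 promoter: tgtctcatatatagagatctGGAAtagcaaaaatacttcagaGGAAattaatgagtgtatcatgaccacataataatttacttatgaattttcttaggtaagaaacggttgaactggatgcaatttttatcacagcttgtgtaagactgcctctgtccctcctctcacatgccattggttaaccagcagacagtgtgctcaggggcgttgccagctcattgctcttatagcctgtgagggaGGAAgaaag
AKR1C2 promoter: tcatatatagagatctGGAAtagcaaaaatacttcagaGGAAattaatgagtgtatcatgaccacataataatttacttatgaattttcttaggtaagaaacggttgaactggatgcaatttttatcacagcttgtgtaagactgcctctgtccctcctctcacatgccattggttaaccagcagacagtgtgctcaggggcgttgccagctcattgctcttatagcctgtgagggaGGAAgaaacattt
Both hold 3 GGAA cores in the same orientation. GGAA on either strand was in 95.5% of all 35116 RefSeq promoter windows of 300 bases, so its presence is not particular to these genes.

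AKR1B10, which reduces retinal and other aldehydes, was the least abundant of the 10 genes in RWPE1-vector and lies at chr7:134212344-134226166. It was at 0.245 FPKM in RWPE1-vector, 0.175 in RWPE1-ERG, 0.565 in RWPE1-mAKT and 3.27 in RWPE1-ERG/mAKT. Only the RWPE1-ERG/mAKT value exceeded 1 FPKM, the minimum that a gene had to reach in any line to enter the comparisons. All 10 genes passed that minimum, AKR1B10 through this single line. Its levels in the other lines are low enough that the ratios below depend on small amounts of RNA.

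NQO1, SRXN1 and TXNRD1 were the most abundant members in every line. NQO1, the quinone reductase (chr16:69743304-69760571), was at 58.8 FPKM in RWPE1-vector, 56.5 in RWPE1-ERG, 77.0 in RWPE1-mAKT and 72.1 in RWPE1-ERG/mAKT. TXNRD1, which reduces thioredoxin (chr12:104609557-104744085), was at 50.3, 65.1, 49.1 and 73.5 FPKM. SRXN1, which repairs over-oxidised peroxiredoxins (chr20:627268-634014), was at 39.3, 30.0, 40.8 and 45.3 FPKM. These genes spanned between 1.36-fold and 1.51-fold from the lowest to the highest line. NQO1 was higher in both lines with mAKT, TXNRD1 was higher in both lines with ERG, and SRXN1 was lowest in RWPE1-ERG.

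The subunits of glutamate-cysteine ligase, the first enzyme of glutathione synthesis, differed from each other. GCLC, the catalytic subunit (chr6:53362140-53409927), was at 20.6 FPKM in RWPE1-vector, 11.0 in RWPE1-ERG, 25.4 in RWPE1-mAKT and 24.1 in RWPE1-ERG/mAKT. GCLM, the modifier subunit (chr1:94350756-94375154), was at 5.82, 6.54, 6.33 and 7.13 FPKM. GCLC was lowest in RWPE1-ERG, as the AKR1C genes were, whereas GCLM spanned 1.23-fold over the 4 lines, the smallest range of the 10 genes. HMOX1, the heme oxygenase that BACH1 represses (chr22:35777060-35790207), was at 1.22, 1.79, 1.63 and 3.70 FPKM. It was lowest in RWPE1-vector and highest in RWPE1-ERG/mAKT.

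**Figure D1:**
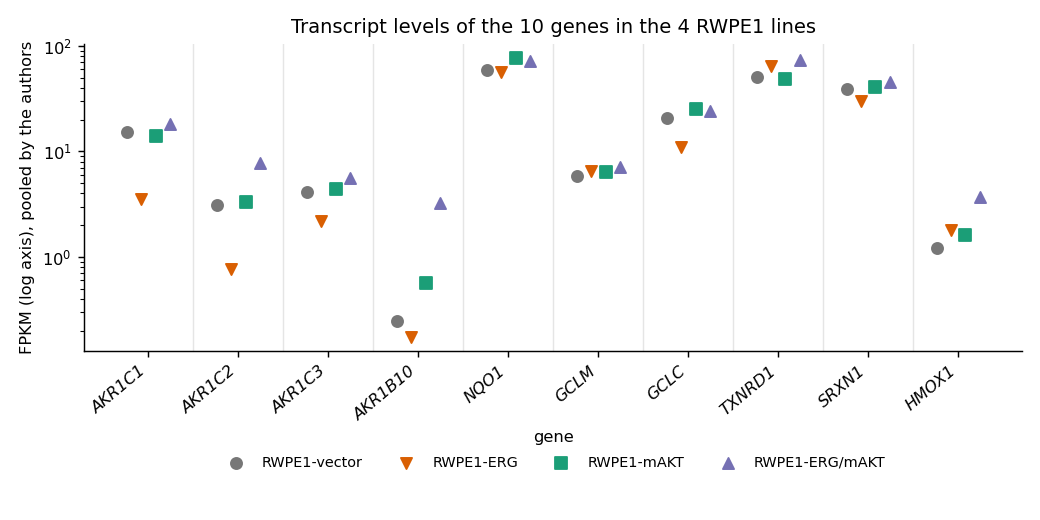
FPKM of the 10 genes (log axis) in the 4 RWPE1 lines. Each symbol is 1 value that the authors pooled over 3 libraries, so there are no error bars. AKR1C1, AKR1C2, AKR1C3, AKR1B10, GCLC, NQO1 and SRXN1 have their lowest symbol in RWPE1-ERG.

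The RWPE1-ERG and RWPE1-vector lines were compared to see how the genes differed with ERG alone. A gene was counted as called when its FPKM differed at least 2-fold between lines. AKR1C1 was 4.35-fold lower in RWPE1-ERG (log2 ratio -2.12) and AKR1C2 4.06-fold lower (log2 ratio -2.02). These were the called members, 2 of 10, where 1.77% of the 12484 genes with a ratio were at least 2-fold lower. AKR1C1 held rank 23 and AKR1C2 rank 30 from the lowest of those ratios. AKR1C3 (log2 ratio -0.91) and GCLC (-0.91) came next, just short of 2-fold. No member was at least 2-fold higher, against 4.81% of all genes, and the highest was HMOX1 at a log2 ratio of 0.56. The median log2 ratio of the 10 genes was -0.44, and that of all genes was -0.01.

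With mAKT alone the genes lay closer to RWPE1-vector. AKR1B10 was 2.31-fold higher in RWPE1-mAKT, between values that were both below 1 FPKM, and no other member was called. At least 2-fold higher were 1.21% of the 12495 genes, and 1.06% were at least 2-fold lower. The log2 ratios of the other 9 genes ran from -0.15 for AKR1C1 to 0.42 for HMOX1. The median was 0.10 for the 10 genes and 0.02 for all genes.

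Against RWPE1-vector, the line with both proteins had 3 called members, all higher. AKR1B10 was 13.3-fold higher in RWPE1-ERG/mAKT, HMOX1 3.04-fold higher and AKR1C2 2.45-fold higher. Of 12496 genes, 3.71% were at least 2-fold higher and 1.72% at least 2-fold lower. AKR1C1, with a log2 ratio of 0.26, and AKR1C3, with 0.42, lay near their RWPE1-vector level. The smallest of the 10 log2 ratios was 0.20 for SRXN1, beside a median of -0.07 over all genes. The share of all genes with a ratio above 0 was not counted, and the members were chosen with these values known.

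The comparison of RWPE1-ERG/mAKT with RWPE1-ERG addressed what AKT activation added to ERG, and it gave the most called members. AKR1B10 was 18.6-fold higher, AKR1C2 9.95-fold higher, AKR1C1 5.19-fold higher, AKR1C3 2.52-fold higher and HMOX1 2.06-fold higher. GCLC was also called, at a log2 ratio of 1.14. These were 6 of 10 members, where 2.71% of the 12497 genes were at least 2-fold higher and 3.65% were at least 2-fold lower. AKR1B10 held rank 15 and AKR1C2 rank 37 from the highest ratio. With 1 FPKM added to every value the log2 ratio fell from 4.22 to 1.86 for AKR1B10 and from 3.32 to 2.29 for AKR1C2. The log2 ratio of HMOX1 was then 0.75, and 5 members were called. The ranks above and the ratios below are without this addition. SRXN1, NQO1, TXNRD1 and GCLM had log2 ratios of 0.59, 0.35, 0.18 and 0.12. The members' median log2 ratio was 1.09, beside -0.05 for all genes.

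RWPE1-ERG/mAKT was then set against RWPE1-mAKT, which gives the ERG ratio in the presence of mAKT. AKT1 RNA also differed, at 281 FPKM in RWPE1-ERG/mAKT and 156 in RWPE1-mAKT. The part of this difference in the ratios was not tested. AKR1B10 was 5.78-fold higher, AKR1C2 2.31-fold higher and HMOX1 2.27-fold higher in RWPE1-ERG/mAKT. They were 3 of 10 members, against 2.78% of 12508 genes at least 2-fold higher and 1.06% at least 2-fold lower. With 1 FPKM added, HMOX1 had a log2 ratio of 0.84 here and 2 members were called. The log2 ratio was 0.58 for TXNRD1, 0.40 for AKR1C1 and 0.34 for AKR1C3. NQO1 and GCLC had ratios just below 0, at -0.10 and -0.08. Because these 5 comparisons reuse the same 4 lines, a low value in RWPE1-ERG enters every comparison with that line.

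The ERG ratio was next compared without and with mAKT, in pairs of lines that share no library. For AKR1C1 the log2 ratio was -2.12 without mAKT and 0.40 with it, a 5.75-fold difference between the ratios. AKR1C2 went from -2.02 to 1.21, a 9.37-fold difference. AKR1B10 went from -0.48 to 2.53, and AKR1C3 from -0.91 to 0.34, which are 8.07-fold and 2.37-fold differences. For these 4 genes the ratio was below 0 without mAKT and above 0 with it. The same held for SRXN1, whose ratio went from -0.39 to 0.15. The share of all genes whose ratio differed in sign was not counted. The 4 AKR genes were the members whose ratio was at least 2-fold above with mAKT, where 2.38% of the 12458 genes with both ratios were. GCLC differed 1.78-fold and HMOX1 1.54-fold. GCLM had the same log2 ratio of 0.17 in both pairs, and NQO1 ratios of -0.06 and -0.10 differed by less than 0.1 on the log2 scale. With 1 FPKM added to every value, the log2 difference fell from 3.01 to 1.53 for AKR1B10 and from 1.25 to 0.96 for AKR1C3. The AKR1B10 ratio without mAKT was then -0.08, and both values behind it were below 1 FPKM before the addition. The difference between the ratios could not be tested on pooled values. RWPE1-ERG/mAKT also had more AKT1 RNA than RWPE1-mAKT, and the part of this in the difference was not tested.

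**Figure D2:**
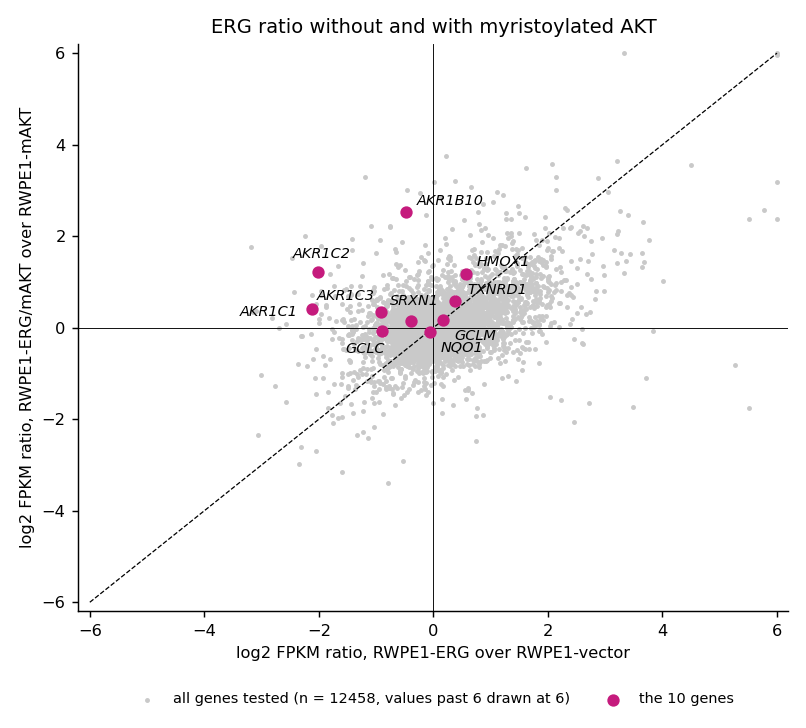
Log2 FPKM ratio of RWPE1-ERG over RWPE1-vector (x axis) against RWPE1-ERG/mAKT over RWPE1-mAKT (y axis). Grey points are all 12458 genes with both ratios, coloured points are the 10 genes, and the dashed line marks equal ratios. AKR1C1, AKR1C2, AKR1C3 and AKR1B10 lie left of 0 on the x axis and above 0 on the y axis, while NQO1 and GCLM lie near the dashed line.

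The other genes of the pathway were taken from a list of 119 genes outside the 10, of which 100 reached 1 FPKM in any line. In RWPE1-ERG over RWPE1-vector, 2 of the 100 were at least 2-fold higher, beside 4.81% of all genes, and 3 at least 2-fold lower, beside 1.77%, with a median log2 ratio of 0.00. In RWPE1-ERG/mAKT over RWPE1-ERG, 7 were at least 2-fold higher, beside 2.71% of all genes, and 1 at least 2-fold lower, beside 3.65%, with a median of 0.05. In RWPE1-ERG/mAKT over RWPE1-vector 10 were higher and 2 lower, beside 3.71% and 1.72% of all genes. In RWPE1-ERG/mAKT over RWPE1-mAKT 4 were higher and 2 lower, beside 2.78% and 1.06%, and in RWPE1-mAKT over RWPE1-vector 1 was higher and 0 lower, beside 1.21% and 1.06%.

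The regulators of the pathway differed little in RNA. NFE2L2 was at 47.5 FPKM in RWPE1-vector, 37.7 in RWPE1-ERG, 44.7 in RWPE1-mAKT and 52.0 in RWPE1-ERG/mAKT. KEAP1 was at 43.3, 39.5, 38.4 and 41.9 FPKM in the same order, and BACH1 at 11.6, 8.90, 9.17 and 7.96 FPKM. NFE2L2 had the same order of lines as AKR1C1, over a range under 2-fold. Of the 13 regulators, NFE2L3 was the called gene, at 2.49, 10.0, 3.12 and 6.32 FPKM, and was highest in RWPE1-ERG. NFE2L2, KEAP1 and BACH1, and AKR1C4 above, were chosen after their values were seen. RNA levels do not show how much of these proteins is active.

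Among genes of glutathione synthesis, import and recycling, 4 of 11 were at least 2-fold higher in RWPE1-ERG/mAKT than in RWPE1-ERG, beside 2.71% of all genes. SLC7A11, the cystine importer, was at 4.36 FPKM in RWPE1-vector, 2.11 in RWPE1-ERG, 4.68 in RWPE1-mAKT and 5.63 in RWPE1-ERG/mAKT, the same order of lines as AKR1C2 and AKR1C3. GPX2 and GPX3, glutathione peroxidases, were instead lowest in lines without mAKT: GPX2 was at 2.16, 2.90, 5.98 and 9.59 FPKM, and GPX3 at 5.97, 5.89, 9.61 and 20.1 FPKM. CHAC1, which degrades glutathione, was at 3.77, 2.68, 6.38 and 6.84 FPKM. GLRX, a glutaredoxin, went the other way from SLC7A11 and was highest in RWPE1-ERG, at 6.78, 16.7, 8.46 and 8.79 FPKM.

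In the group of aldehyde and epoxide metabolism, ALDH3A1, an aldehyde dehydrogenase, had the same order of lines as AKR1C2. It was at 3.36 FPKM in RWPE1-vector, 0.864 in RWPE1-ERG, 4.48 in RWPE1-mAKT and 15.3 in RWPE1-ERG/mAKT, with a log2 ratio of -1.96 for RWPE1-ERG over RWPE1-vector and 4.15 for RWPE1-ERG/mAKT over RWPE1-ERG. EPHX1, an epoxide hydrolase, was at 19.5, 21.7, 23.3 and 39.7 FPKM, and UGT1A6, a glucuronosyltransferase, at 19.0, 26.9, 22.8 and 47.6 FPKM. Both were highest in RWPE1-ERG/mAKT and were not low in RWPE1-ERG. UGT1A6 shares exons with other UGT1A genes, so its value is uncertain.

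Outside those groups the called genes were CBR3, ABCC3, PIR, TRIM16, TRIM16L, MT2A and SESN3. PIR was at 4.20, 4.56, 5.93 and 10.0 FPKM in the same order of lines, TRIM16 at 13.0, 16.2, 19.1 and 26.9 FPKM, and TRIM16L at 3.60, 4.05, 5.35 and 9.36 FPKM. These 3 genes were highest in RWPE1-ERG/mAKT and lowest in RWPE1-vector. TRIM16 and TRIM16L are related copies whose reads may be shared. CBR3, a carbonyl reductase, was at 4.58, 9.01, 5.58 and 9.31 FPKM, higher in both lines with ERG. ABCC3, a conjugate exporter, was at 6.67, 4.05, 7.14 and 2.82 FPKM, and MT2A, a metallothionein, at 13332, 19639, 15674 and 6088 FPKM. Both had their lowest value in RWPE1-ERG/mAKT, where the AKR genes had their highest. SESN3 stayed below 5 FPKM, and its log2 ratio was -1.25 in RWPE1-ERG over RWPE1-vector. None of the 9 glutathione transferases, 9 heme and iron genes, 7 NADPH-supply genes or 3 superoxide and peroxide genes above 1 FPKM was called in any of the 5 comparisons.

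**Figure D3:**
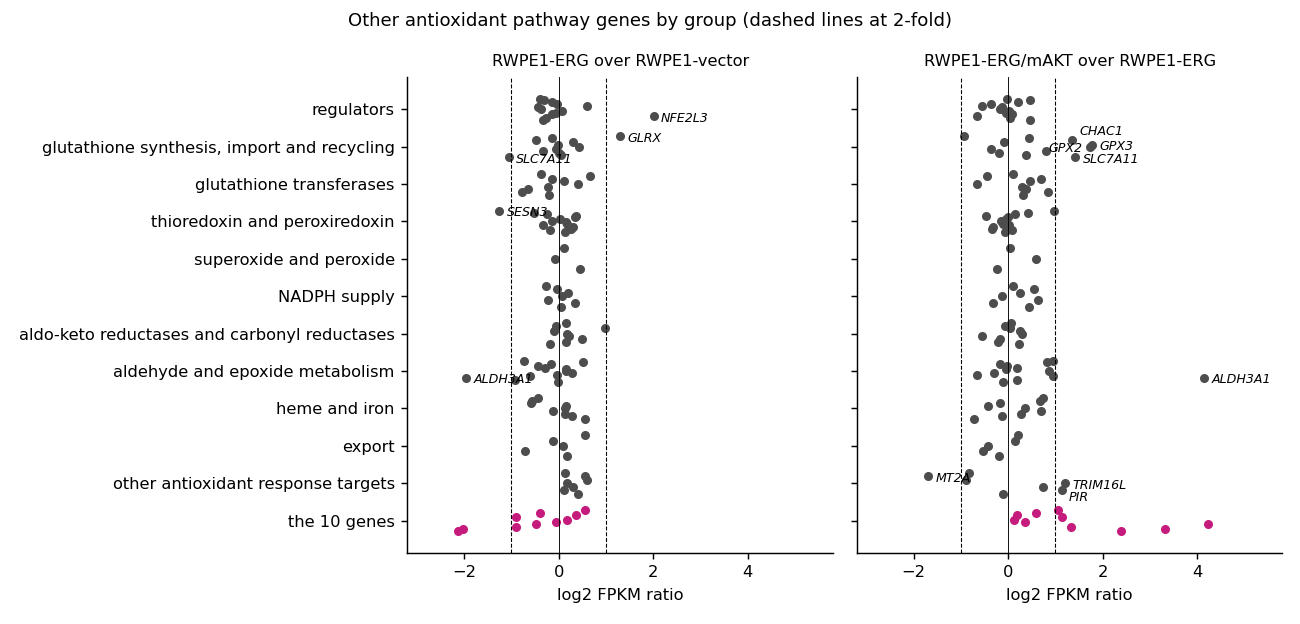
Log2 FPKM ratios (x axis) of the 100 other pathway genes, 1 point per gene in rows by group, and of the 10 genes in the bottom row, for RWPE1-ERG over RWPE1-vector (left) and RWPE1-ERG/mAKT over RWPE1-ERG (right). Dashed lines mark 2-fold and the called pathway genes are named. ALDH3A1 is at -1.96 on the left and 4.15 on the right.

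The genes whose pattern over the 4 lines was most like that of AKR1C1, AKR1C2 and AKR1C3 were EFS, KLHDC8B, FAT2, TRIM29 and the microRNA gene MIR647. Likeness was the Euclidean distance between log2(FPKM + 1) values centred on each gene's mean over 4 lines, among 9308 genes at 5 FPKM or more in any line. EFS, an adaptor protein, was nearest at a distance of 0.25, with 3.93 FPKM in RWPE1-vector, 1.59 in RWPE1-ERG, 4.46 in RWPE1-mAKT and 6.42 in RWPE1-ERG/mAKT. TRIM29, a gene of basal epithelium, was at 122, 56.8, 140.5 and 159 FPKM. FAT2, a cadherin-like protein of squamous and basal epithelia, was at 14.3, 6.44, 16.6 and 19.7 FPKM. With 4 lines the likeness rests on 4 values per gene.

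The deposited peak lists were then read around each gene, to 20 kb on either side of its span in the table. Each list comes from 1 library, so a peak present in 1 list and absent from another has no replicate check. The ERG ChIP-seq list of RWPE1-ERG/mAKT held 9113 peaks from 10306483 reads, of which 450 had a q-value of at most 0.01. The ERG list of vehicle-treated VCaP cells held 6143 peaks, of which 1730 had such a q-value. No ERG peak of either list lay within 20 kb of AKR1C1, AKR1C2, AKR1C3, AKR1B10 or HMOX1. No ERG list of RWPE1-ERG was used here, so ERG binding in the line where the AKR1C genes were lowest was not examined. NQO1, GCLC and TXNRD1 had an ERG peak in RWPE1-ERG/mAKT, 3 of 10 members beside 32.5% of the 12670 genes that reached 1 FPKM. GCLM, TXNRD1 and SRXN1 had one in VCaP, again 3 of 10 beside 24.7% of genes. Both counts are near the background share.

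TXNRD1 was the member with an ERG peak in both lists. The RWPE1-ERG/mAKT peak at chr12:104613854-104614122 on hg19 lay in an intron of TXNRD1, 4297 bp downstream of the 5′ end of its span, with a fold enrichment over input of 3.53 and a −log10 p of 4.13. Its q-value did not pass 0.01. The VCaP peak at chr12:104613957-104614152, with a fold enrichment of 4.90 and a −log10 q of 3.58, overlapped it by 166 bp. A second VCaP peak at chr12:104613518-104613786 had a fold enrichment of 3.00. All 3 RWPE1 ATAC-seq lists had an open site across the RWPE1-ERG/mAKT peak, with fold enrichments of 8.01 in RWPE1-ERG, 6.54 in RWPE1-mAKT and 6.76 in RWPE1-ERG/mAKT. ERK2 ChIP-seq peaks overlapped it as well, at 3.86-fold enrichment in RWPE1-vector and 4.69-fold in RWPE1-ERG. The 269 bases of the RWPE1-ERG/mAKT peak, read from GRCh37 on the plus strand, are shown because this was the interval where ERG, ERK2 and open chromatin were all listed. Capitals mark GGAA on either strand, which occurs 3 times within a short stretch.
TXNRD1 intron peak: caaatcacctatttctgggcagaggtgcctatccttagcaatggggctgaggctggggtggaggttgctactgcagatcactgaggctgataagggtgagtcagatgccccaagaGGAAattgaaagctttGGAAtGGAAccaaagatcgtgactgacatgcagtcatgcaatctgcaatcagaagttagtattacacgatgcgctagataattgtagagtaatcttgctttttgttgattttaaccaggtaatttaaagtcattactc
GGAA was in the central 300 bases of 94.6% of all RWPE1-ERG/mAKT ERG peaks and 93.3% of the 5919 VCaP peaks on the assembled chromosomes. The peak held 1 TGANTCA match, the letters bound by AP-1, and no TGACNNNGC, the core of the ARE.

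The other ERG peaks near members were weaker or nearer to another gene. In RWPE1-ERG/mAKT the NQO1 peak at chr16:69729893-69730001 lay in an intron of NFAT5, 30570 bp from the 5′ end of NQO1, and the GCLC peak at chr6:53368004-53368112 lay in an intron of GCLC. Each had a fold enrichment of 2.82 and a −log10 q of 0, and neither overlapped an ATAC or ERK2 peak. In VCaP the GCLM peak at chr1:94344760-94344924, with a fold enrichment of 4.48 and a −log10 q of 2.01, covered a 5′ end of DNTTIP2 and lay 30230 bp from that of GCLM. The SRXN1 peaks at chr20:626095-626271, between genes, and chr20:632473-632716, in an intron of SRXN1, had fold enrichments of 3.44 and 3.39. SRXN1 had no ERG peak in RWPE1-ERG/mAKT.

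ATAC-seq cuts DNA where chromatin is open, and lists of 3 lines were used here (ATAC-seq of RWPE1-vector was not analysed here), with 63354 peaks listed for RWPE1-ERG, 57999 for RWPE1-mAKT and 42081 for RWPE1-ERG/mAKT. All 10 members had a peak within 20 kb in RWPE1-ERG and in RWPE1-mAKT, and 8 of 10 did in RWPE1-ERG/mAKT. The same was true of 98.4%, 98.3% and 97.7% of the 12670 genes, so a peak near a member is the usual case. The members without one in RWPE1-ERG/mAKT were AKR1C2 and AKR1C3. The share of all genes with a peak over the 5′ end of the span in all 3 lists was not counted. Among the members 6 had one: AKR1C1, NQO1, GCLM, GCLC, SRXN1 and HMOX1. NQO1 had the highest fold enrichments there, 10.6 in RWPE1-ERG, 9.34 in RWPE1-mAKT and 8.67 in RWPE1-ERG/mAKT. AKR1C1 had the lowest, at 4.56, 4.24 and 4.50, in the same order of lists. SRXN1 was at 9.99, 7.69 and 7.08, HMOX1 at 7.06, 6.70 and 5.28, GCLM at 6.75, 5.61 and 6.85, and GCLC at 5.58, 5.27 and 6.55. TXNRD1 had no peak over the 5′ end of its span in any of the 3 lists, but each list had a peak over another annotated TXNRD1 start, with fold enrichments of 6.44, 6.72 and 6.51.

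In the AKR1C cluster, AKR1C2 and AKR1C3 had the most open sites in RWPE1-ERG, the line with their lowest transcript level. AKR1C3 had 4 ATAC peaks within 20 kb in RWPE1-ERG, 2 in RWPE1-mAKT and 0 in RWPE1-ERG/mAKT, the line with its highest FPKM. AKR1C2 had 2, 1 and 0. AKR1C1 had 2 in each list, at its 5′ end and at about 15 kb upstream, where the fold enrichment was 11.6 in RWPE1-ERG, 9.76 in RWPE1-mAKT and 11.8 in RWPE1-ERG/mAKT. The nearest peak to the 5′ end of the AKR1C3 span was at chr10:5085882-5086400 in RWPE1-ERG, with a fold enrichment of 8.75, and at chr10:5113419-5114170 in RWPE1-mAKT, with 5.97. For AKR1C2 it was at chr10:5055676-5056858 in RWPE1-ERG, with 4.56, and at chr10:5045943-5046370 in RWPE1-mAKT, with 3.45. The last of these lay 13855 bp from the 5′ end of the AKR1C2 span and covered an annotated AKR1C2 start and coding exon. AKR1C3 likewise had a peak over another annotated start, at chr10:5136493-5137060 in RWPE1-ERG with a fold enrichment of 10.3 and at chr10:5136497-5136984 in RWPE1-mAKT with 4.78. AKR1B10 had 4 peaks in each list, but the peak over its 5′ end, chr7:134211315-134212365, was in RWPE1-ERG. In RWPE1-mAKT the nearest was 757 bp away and in RWPE1-ERG/mAKT 4615 bp away. The RWPE1-ERG/mAKT list is the shortest of the 3. When each list was held to its 33000 peaks of lowest p-value, AKR1C3 still had a peak in RWPE1-ERG and RWPE1-mAKT and none in RWPE1-ERG/mAKT, and AKR1C2 had none in any.

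The ARE letters TGACNNNGC were searched on both strands in the open sites near members and in promoters. In the central 300 bases of the 40 merged open sites within 20 kb of a member, 13 held the core (32.5%), beside 14.0% of all 77197 merged open sites. In RefSeq promoter windows, found for 8 of the 10 members and not for AKR1B10 or HMOX1, 3 of 10 windows held it, beside 13.3% of 35116. These were the promoter of GCLM and both promoters of TXNRD1, and the promoters of AKR1C1, AKR1C2, AKR1C3, NQO1, GCLC and SRXN1 did not hold it within 250 bases before to 50 after the start. TGANTCA was in 14 of the 40 open sites (35.0%) beside 27.7% of all, and in 0 of the 10 promoter windows beside 7.71%. The sites of 1 gene share that gene, and no test was made.

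Over the whole length of the open sites the core occurred 26 times, near 8 members. HMOX1 had 9 matches, TXNRD1 6, AKR1C3 and GCLC 3 each, GCLM 2, and AKR1C2, AKR1B10 and NQO1 1 each. AKR1C1 and SRXN1 had none. The form TGACTCAGC, in which the ARE core also contains the AP-1 letters TGANTCA, made up 9 of the matches. The 5 outside HMOX1 are shown because they hold both sets of letters and differ in which lists had a peak over them. They were read from GRCh37, 5′ to 3′ on the strand of the motif, with the core in capitals. The NQO1 match at chr16:69760885-69760943, minus strand, lay 314 bp from the start of NQO1 in a noncoding exon of NQO1-DT. The GCLC match at chr6:53413022-53413080, plus strand, lay 18 bp from the nearest annotated GCLC start. The GCLM match at chr1:94344123-94344181, minus strand, lay in an intron of the neighbouring gene DNTTIP2. Peaks of all 3 lists covered the NQO1 and GCLC cores, and the RWPE1-mAKT peak alone covered the GCLM core. The AKR1C2 match at chr10:5051576-5051634, plus strand, lay in the AKR1C2 span, where the GENCODE annotation used places no gene. Its site was listed in RWPE1-ERG alone, the line with the lowest AKR1C2 level. The AKR1C3 match at chr10:5114075-5114133, minus strand, lay in an intron of AKR1C3 in a site listed in RWPE1-ERG and RWPE1-mAKT.
NQO1: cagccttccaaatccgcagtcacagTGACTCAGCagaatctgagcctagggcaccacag
GCLC: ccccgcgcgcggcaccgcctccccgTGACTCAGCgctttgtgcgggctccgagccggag
GCLM: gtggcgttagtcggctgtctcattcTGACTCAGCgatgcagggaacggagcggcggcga
AKR1C2: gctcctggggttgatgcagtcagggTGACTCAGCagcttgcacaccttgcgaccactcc
AKR1C3: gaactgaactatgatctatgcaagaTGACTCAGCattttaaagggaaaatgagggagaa
A match of letters is a description of the sequence and says nothing of whether a factor was bound.

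ERK2 ChIP-seq and H3K27me3, the histone mark that Polycomb places, were read in RWPE1-vector and RWPE1-ERG. An ERK2 peak lay within 20 kb of 7 of 10 members in RWPE1-vector, beside 76.6% of the 12670 genes, and of 1 of 10 in RWPE1-ERG, beside 33.4%. The list shrank from 41276 to 5721 peaks between the lines. AKR1C1, AKR1C2, AKR1C3, NQO1, GCLM, GCLC and TXNRD1 had one in RWPE1-vector, and AKR1C1 and AKR1C2 shared a peak. TXNRD1 had 5 in each line and was the member that kept any. None of the ERK2 peaks near members had a q-value of at most 0.01, and the highest fold enrichment was 4.92, at chr10:4987956-4988194, 17260 bp upstream of AKR1C1.

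**Figure D4:**
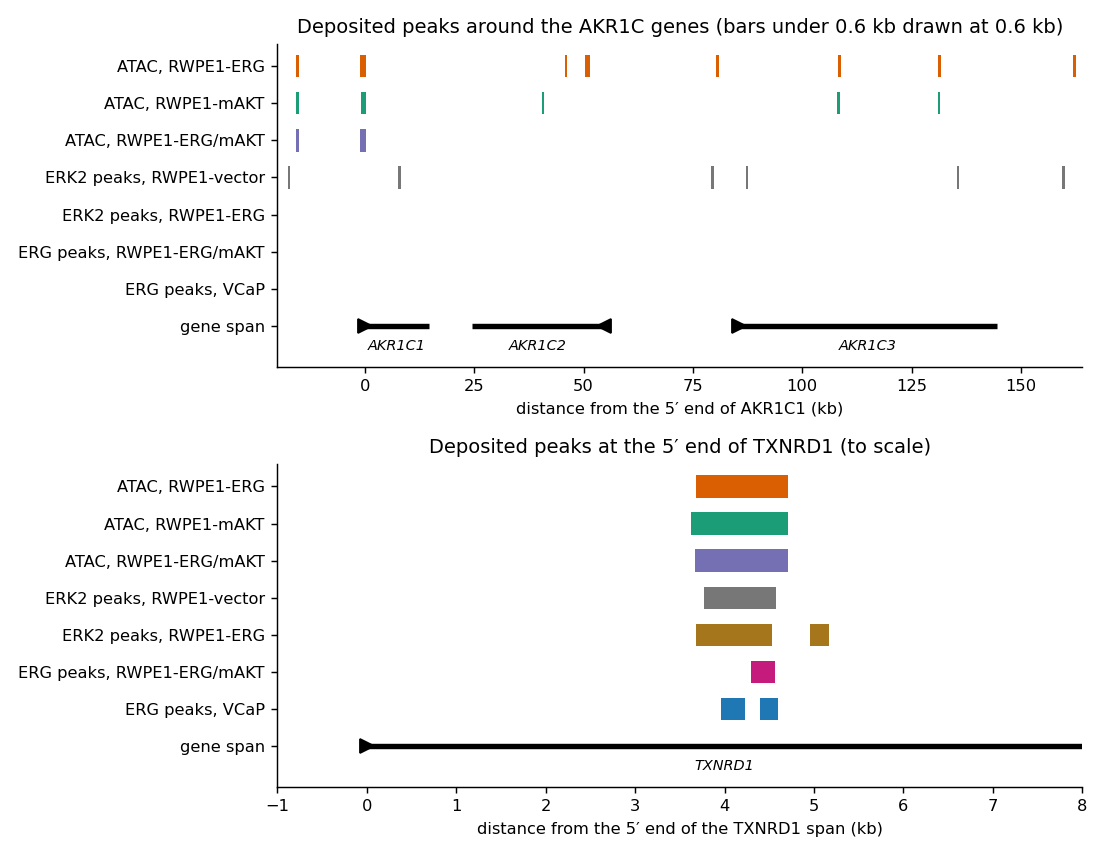
Deposited peaks in 7 lists around the AKR1C genes (top, distance from the 5′ end of AKR1C1 in kb) and at the 5′ end of TXNRD1 (bottom, distance in kb). Bars are peaks, black lines are gene spans and arrowheads mark 5′ ends. The ERG lists are of RWPE1-ERG/mAKT and VCaP, and no ERG list of RWPE1-ERG was used. No ERG bar is drawn in the AKR1C cluster and no ATAC bar of RWPE1-ERG/mAKT over AKR1C2 or AKR1C3, while at TXNRD1 the bars of all 7 lists overlap in the same interval of the intron.

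H3K27me3 regions fell in the span of 7 of 10 members in RWPE1-vector and 3 of 10 in RWPE1-ERG, where 71.6% and 21.4% of all 12670 genes had one. AKR1C3 had the largest share of its span covered in RWPE1-vector, 16.1%, and 3.83% in RWPE1-ERG. AKR1C2 had 6.16% and 4.52%, and AKR1C1 had 1.24% and 5.03%. The median over all genes was 1.76% in RWPE1-vector and 0 in RWPE1-ERG. The AKR1C genes were the members with any region in RWPE1-ERG. In the ERG S96E line AKR1C3 had 6.68%, AKR1C2 4.76% and TXNRD1 0.17% covered, and 21.5% of genes had a region, with a median of 0 covered. No region in a member had a q-value of at most 0.01, and the highest fold enrichment was 2.68.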

How the data were processed

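RWPE1 RNA was poly(A)-selected, aligned with TopHat2 and quantified with Cuffdiff by the authors, who deposited 1 FPKM per gene and line for 6 pairs of lines. The columns of their own fold changes, statistics, p-values and q-values were not used. The authors aligned ChIP-seq and ATAC-seq reads to hg19 with Bowtie2, removed duplicates with Picard and called peaks with MACS2 (2.1.2 or 2.2.7.1 in the file headers), broad for ATAC-seq. The deposited peak lists give a ratio (fold enrichment), a −log10 p-value and a −log10 q-value per peak. Lists came from 1 library each. ChIP depths ran from 8393459 to 26454542 reads where headers give them, and no depth is given in the sources used here for VCaP and 2 ATAC lists. Another 2 lists were left out because their contents did not match their labels.

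From these, FPKM ratios without a pseudocount were computed for genes at 1 FPKM or more in any line and above 0 in both lines compared (pandas 2.3.3, Python). No test was possible on pooled values. Peaks were assigned within 20 kb of the Cuffdiff span, and annotated with GENCODE release 44 on GRCh37. Calls, overlaps and motif searches were checked on simulated data. The 10 genes, the pathway list and the comparisons were chosen with earlier results of these data known. Named in the text are all members, pathway genes with a 2-fold difference at 5 FPKM or more, the 5 nearest patterns, every ERG peak and the nearest ATAC peak of each member.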

Additional observations from a re-analysis of the deposited data

Results flagged for a closer look

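For 5 of the 10 genes the ERG ratio had opposite signs without and with mAKT. Other genes had opposite signs too, and their share was not counted. On the log2 scale the ratio with mAKT exceeded the ratio without it by 3.23 for AKR1C2, 3.01 for AKR1B10, 2.52 for AKR1C1, 1.25 for AKR1C3 and 0.54 for SRXN1. Each rests on 1 pooled value per line, and the difference was not tested. AKR1B10 was below 1 FPKM in 3 of the 4 lines.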

How the results depend on the processing

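A fold of 1.5 raised the called members from 2 to 4 in RWPE1-ERG over RWPE1-vector. Counting AKR1C1, AKR1C2 and AKR1C3 as 1 summed value left 1 called of 8 there, and 2 of 8 for the ERG ratio with against without mAKT, an alternative chosen after seeing the data. With a pseudocount of 1, 0 members were called in RWPE1-mAKT over RWPE1-vector, since both AKR1B10 values are below 1 FPKM, and AKR1C3 fell just short of 2-fold (log2 0.96) in the difference of the ERG ratios. HMOX1 then lost its call over RWPE1-ERG (log2 1.04 to 0.75) and over RWPE1-mAKT (1.18 to 0.84) in RWPE1-ERG/mAKT, leaving 5 and 2 called members. Centring moved no count by over 1.5 times, and of the 100 ratios recomputed for single genes with a pseudocount or centring 1 changed sign, the uncalled GCLC in RWPE1-ERG/mAKT over RWPE1-mAKT (-0.08 to 0.01 when centred). Without the FPKM minimum the share of all genes past 2-fold rose to between 10.1% and 15.1%. Counting from the start only left 1 member with an ERG peak in RWPE1-ERG/mAKT, and a window of 50 kb gave 2 with an ERK2 peak in RWPE1-ERG. At a q-value of at most 0.01, 0 members kept an ERG peak in RWPE1-ERG/mAKT, an ERK2 peak in either line or an H3K27me3 region in any line. The ARE core with an A after it was in 8 of the 40 open sites (20%), beside 4.73% of all 77197. By Pearson correlation, 0 of the 5 nearest patterns were the same. H3K27me3 was counted in the span, so windows were not varied for it. No paired analysis was possible because the RNA values are pooled over libraries, and leaving out a replicate was not run for the same reason. Pooling leaves no estimate of the error of any ratio, which matters most for genes near or below 1 FPKM.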
